A study of Mus musculus with 6 samples.

Results

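Lcn2, Havcr1, Spp1, Clu, Vcam1, Icam1, Krt20 and Sox9 are genes that kidney tubules switch on after injury, and they were followed here in cultured mouse kidney cells in which Prune2 was depleted. They were found by name in the symbol column of the deposited gene table. The search returned 10 rows of 22274, of which 8 are the genes themselves and 2 are neighbours of Havcr1 that the table also names Havcr1 (BC053393 and Gm12169 in the GENCODE annotation, both with 0 counts in all libraries). The study compared cells given siRNA against Prune2 (genotype label of a prune2 knockdown, 3 libraries) with cells given a scrambled control siRNA (genotype label WT, 3 libraries). All 6 cultures are described as primary renal fibroblasts from kidney, kept in medium with fetal bovine serum and stimulated with TGF-β at 5 ng/ml for 48 h. Neither the number of animals or isolations behind the cells nor the sequence of the siRNA was used here, and p-values measure the spread between libraries, which may be technical.

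Injured tubule cells lose transport functions and turn on a set of secreted, surface and structural genes. Lcn2 encodes lipocalin-2 (NGAL), a secreted protein that binds iron-carrying siderophores and is used as a urinary marker of acute kidney injury. Havcr1 encodes KIM1, a phosphatidylserine receptor that appears on injured proximal tubule. Spp1 (osteopontin) and Clu (clusterin, an extracellular chaperone) are secreted, Vcam1 and Icam1 are leukocyte adhesion molecules induced by cytokines, Krt20 is a keratin of the cytoskeleton, and Sox9 is a transcription factor of tubular repair. In kidney these genes are also known in other cells: Lcn2 in neutrophils, Spp1 in macrophages, and Vcam1 and Icam1 in endothelium.

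Library totals ran from 20075265 to 23234797 counts. Levels are given as CPM (counts scaled to library size, with TMM factors) when 1 gene is compared between groups, and as the authors' deposited FPKM (scaled to transcript length) when genes are compared with each other. Prune2 itself stood at 3.77, 3.18 and 4.44 CPM with Prune2 siRNA, against 6.49, 7.85 and 6.52 CPM with control siRNA (log2 fold change -0.87, SE 0.15, edgeR adjusted p = 0.000214), so its transcript was lowered in part. Its mean deposited FPKM was 0.847 with Prune2 siRNA and 1.18 with control siRNA, a smaller relative difference than in CPM.

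Most markers went against the fibroblast label. Epithelial genes were high: Krt8, a keratin of simple epithelia, had a mean of 1131 FPKM with Prune2 siRNA and 1232 FPKM with control siRNA, the epithelial cadherin Cdh1 227 and 238 FPKM, and the surface marker Epcam 248 and 244 FPKM. Of 11 fibroblast genes, Vim, an intermediate filament gene that cultured epithelial cells can also express, was in the same range as Cdh1 and Epcam, with 181.7 FPKM with Prune2 siRNA and 260.3 FPKM with control siRNA. The other 10 were far lower: Col1a1 (type I collagen) had 34.4 FPKM with Prune2 siRNA and 39.7 FPKM with control siRNA, and Pdgfra (the PDGF receptor of stromal cells) 0.777 and 0.853 FPKM. The stromal proteoglycans Dcn and Lum and the surface marker Thy1 each stayed under 1 FPKM in both groups. Some markers of mature tubule segments were undetected and others were expressed. Slc34a1, Slc22a8 and Fbp1 of the proximal tubule had 0 counts in all 6 libraries, as had Aqp2, Pvalb and Foxi1 of the distal nephron and collecting duct. Of 13 listed proximal tubule genes 6 were abundant enough to test, and of 15 distal nephron genes 8 were. The cells are therefore called the cultured cells below.

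**Figure D1:**
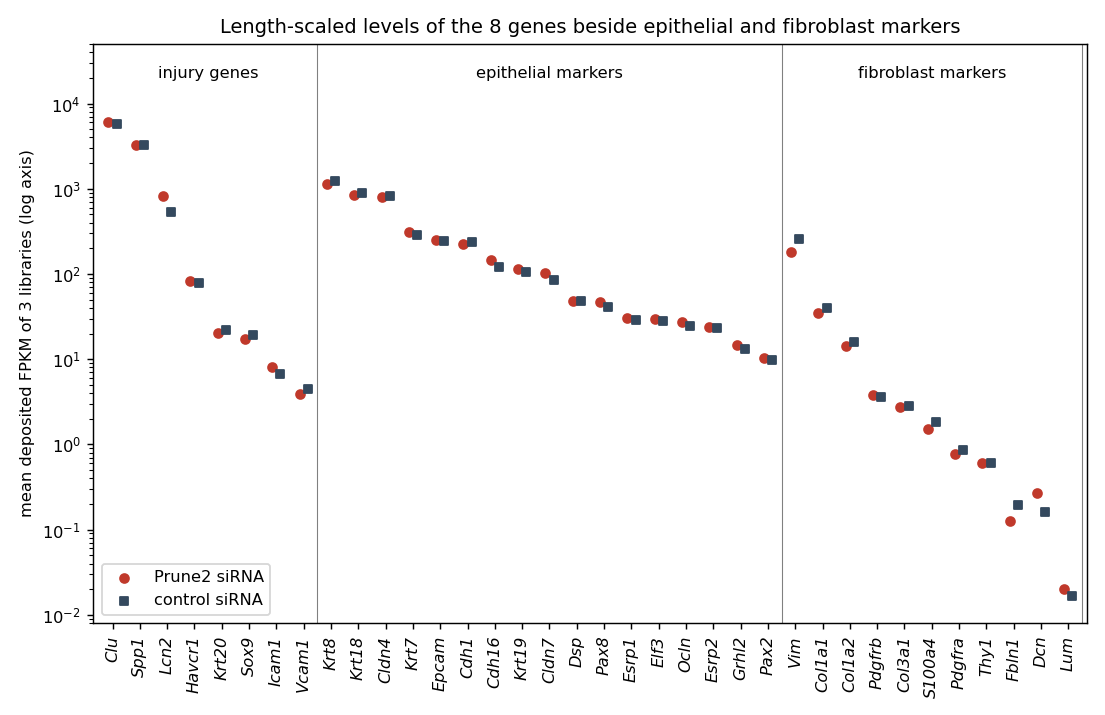
Mean deposited FPKM (log axis) of the 8 injury genes, 17 epithelial markers and 11 fibroblast markers, with red circles for 3 Prune2 siRNA libraries and dark squares for 3 control siRNA libraries. The injury genes span Clu at 6000 and 5690 FPKM to Vcam1 at 3.88 and 4.45 FPKM, and all fibroblast markers except Vim, Col1a1 and Col1a2 lie below 5 FPKM.

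The 8 genes were expressed in a fixed order, Clu, Spp1, Lcn2, Havcr1, Krt20, Sox9, Icam1 and Vcam1 from high to low FPKM, in 6 of 6 libraries. Clu ranked 3 and Spp1 ranked 9 among all 22274 genes by mean FPKM, and Lcn2 ranked 43. Clu alone took 1.06 to 1.1% of all counts with Prune2 siRNA and 1.01 to 1.05% with control siRNA. Havcr1 ranked 775, Krt20 3672, Sox9 4229, Icam1 7434 and Vcam1 9032. The mean FPKM of Clu was 1404 times that of Vcam1. In the middle of the order, Krt20 averaged 20.45 ± 1.61 FPKM with Prune2 siRNA and 22.1 ± 0.523 FPKM with control siRNA, and Sox9 17.1 ± 0.454 and 19.0 ± 0.842 FPKM (SD, n = 3 each). Their library values did not overlap within either group. The transcript length implied by count and FPKM was steady for most of these genes, at 915 bases for Lcn2 in both groups, and it varied most for Vcam1 (3227 ± 108 bases with Prune2 siRNA and 3259 ± 109 bases with control siRNA).

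With Prune2 siRNA, Lcn2 and Icam1 rose and Sox9 fell, while Havcr1, Spp1, Clu, Vcam1 and Krt20 did not pass the test. All 8 passed the filter on low counts. A gene was called at an adjusted p under 0.05 in edgeR's quasi-likelihood test, adjusted over 13248 genes, and a positive fold change means a higher level with Prune2 siRNA. Calls fell on 3 of the 8 genes, where 10.3% of all tested genes were called. In the upward direction there were 2 calls against a background of 4.46%, and in the downward direction 1 against 5.83%. The median log2 fold change of the 8 was 0.04, and that of all tested genes was 0.00. The groups of CPM did not overlap for 5 of the 8 (Lcn2, Icam1, Sox9, Clu and Vcam1), against 24.3% of all tested genes. By the adjusted p of the authors' deposited table, Lcn2 was the 1 gene of the 8 that was called, against 6.07% of the genes with a count.

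On GRCm38, as annotated by GENCODE, the other genes lie as follows. Havcr1 (ENSMUSG00000040405) and Krt20 (ENSMUSG00000035775) are on chromosome 11 from 46735080 to 46779578 and from 99428403 to 99438150, as is Sox9 (ENSMUSG00000000567) from 112782224 to 112787760. Spp1 (ENSMUSG00000029304) is on chromosome 5 from 104435118 to 104441050, and Clu (ENSMUSG00000022037) on chromosome 14 from 65968483 to 65981547. Vcam1 (ENSMUSG00000027962) is on chromosome 3 from 116109949 to 116129688. An antisense gene, Gm43109, shares 61 exon bases with Vcam1, while Gm42793 shares 181 with Spp1 on the same strand.

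**Figure D2:**
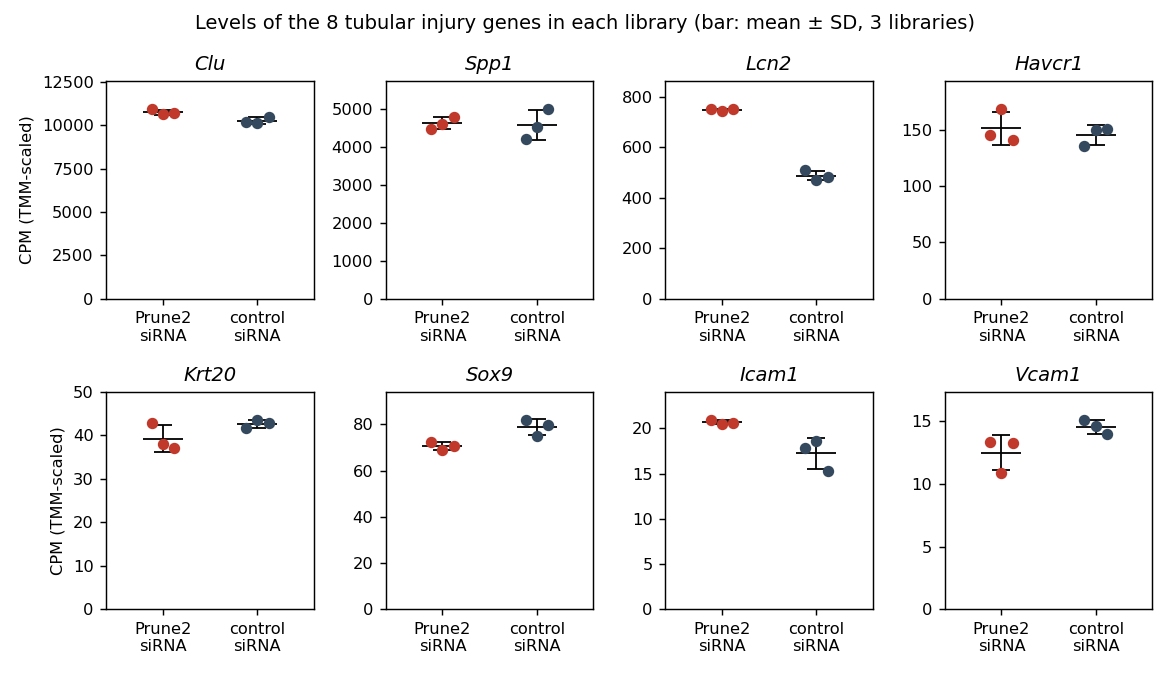
TMM-scaled CPM of each of the 8 genes in each library, Prune2 siRNA (red) left and control siRNA (dark) right, with the mean ± SD of 3 libraries, axes from 0. For Lcn2 the Prune2 siRNA libraries sit at 745.0 to 749.5 CPM and the control libraries at 470.9 to 508.5 CPM, whereas the groups overlap for Spp1, Havcr1 and Krt20.

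Lcn2 showed the largest change of the 8. Its level was 749.4, 745.0 and 749.5 CPM with Prune2 siRNA (counts of 15885, 17080 and 17554), against 508.5, 470.9 and 483.9 CPM with control siRNA (counts of 10416, 9425 and 11140). Every Prune2 siRNA library was above every control library, and the Prune2 siRNA libraries lay within 5 CPM of each other. The means were 748 ± 2.58 CPM and 488 ± 19.1 CPM (SD, n = 3 each). The rise was 1.53-fold (95% interval 1.46 to 1.61, log2 fold change 0.62, SE 0.04, edgeR adjusted p = 3.49e-12). By p-value Lcn2 ranked 17 of the 13248 tested genes, and 12579 of them had a smaller absolute fold change. The coefficient of variation of Lcn2 was 0.345% with Prune2 siRNA, below the 0.771% that counting alone gives, and 3.91% with control siRNA. The authors' deposited table gives a log2 fold change of 0.63 from mean FPKM of 820 and 531. In these bulk libraries, more cells making Lcn2 and more Lcn2 RNA per cell cannot be told apart.

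Neutrophils, which store lipocalin-2 in granules, left almost no transcripts in these libraries. Of 11 neutrophil markers, 6 (S100a9, Camp, Ngp, Mpo, Elane and Retnlg) had 0 counts in all libraries, and none was abundant enough to test. A count of 0 allows up to 0.15 CPM in the shallowest library, taking 3 counts as the limit for counting error only. Summed over the 11 markers, levels were 0.236, 0.305 and 0.342 CPM with Prune2 siRNA and 0.488, 0.4 and 0.521 CPM with control siRNA, against Lcn2 at 470.9 CPM or more.

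Lcn2 (ENSMUSG00000026822) lies on chromosome 2 from 32384633 to 32388252 on the minus strand of GRCm38, with 6 annotated transcripts. The 250 bases before its RefSeq start (GRCm38.p6) were searched on both strands for GGNNNTTCC (the core of an NF-kB site), TTGCNNAA (C/EBP), TTCNNNGAA (STAT), TGANTCA (AP-1) and the core promoter element TATAAA. A C/EBP match was found at bases -216 to -209, shown in capitals because C/EBP and NF-kB factors are the textbook inducers of Lcn2. The stretch covers chr2:32387937-32387966 on the minus strand and lies inside an exon of a longer annotated Lcn2 transcript.
Lcn2: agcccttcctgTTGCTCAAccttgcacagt
The C/EBP letters occur in 9.56% of 32851 promoter windows of the same length. The other searched letters were not in this window, which says nothing about the factors.

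The fold changes of the adhesion genes had opposite signs, but only Icam1 passed the test, so a fall of Vcam1 is not shown. Icam1 binds the leukocyte integrins LFA-1 and Mac-1, and Vcam1 binds the integrin VLA-4. Icam1 stood at 20.9, 20.5 and 20.5 CPM with Prune2 siRNA, against 17.9, 18.5 and 15.3 CPM with control siRNA. The groups did not overlap, and the lowest control library was replicate 3. Icam1 rose 1.2-fold (95% interval 1.07 to 1.345, log2 fold change 0.26, SE 0.08, edgeR adjusted p = 0.0307). Its call was lost without Prune2 siRNA replicate 1 (adjusted p = 0.0806), 2 (0.0621) or 3 (0.0829), or without control replicate 3 (0.218, log2 fold change 0.18). It was also lost in DESeq2 (0.12) and in limma on log2(FPKM + 1) (0.106). The Icam1 values with Prune2 siRNA varied by 1.07%, less than the 4.64% that counting gives at their 443, 470 and 481 counts. An annotated antisense gene, Gm47079, shares 511 bases with an Icam1 exon, and whether counting used strand is not given in these sources, so reads of the pair cannot be told apart.

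Vcam1 stood at 13.3, 10.9 and 13.3 CPM with Prune2 siRNA, against 15.1, 14.6 and 13.9 CPM with control siRNA. The groups did not overlap, and Prune2 siRNA replicate 2 was the lowest library. The log2 fold change of Vcam1 was -0.22 (95% interval -0.41 to -0.03, edgeR adjusted p = 0.173), which missed the threshold over all genes. Within libraries the log2 ratio of Icam1 to Vcam1 averaged 0.73 ± 0.16 with Prune2 siRNA and 0.24 ± 0.11 with control siRNA (SD, n = 3 each; exact two-sided permutation test p = 0.1, the smallest it can give, adjusted p = 0.1 over 8 ratios).

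The Icam1 promoter is printed because Icam1 was called and is a textbook NF-kB and STAT target. The 250 bases before its RefSeq start cover chr9:21015690-21015939 on the plus strand (GRCm38.p6) and touch no annotated Icam1 exon. Icam1 (ENSMUSG00000037405) itself runs on chromosome 9 from 21015985 to 21028817 in GENCODE. Capitals mark an NF-kB core at -153 to -145, where the pattern matches on both strands, another on the minus strand at -84 to -76, and a STAT match at -42 to -34.
Icam1: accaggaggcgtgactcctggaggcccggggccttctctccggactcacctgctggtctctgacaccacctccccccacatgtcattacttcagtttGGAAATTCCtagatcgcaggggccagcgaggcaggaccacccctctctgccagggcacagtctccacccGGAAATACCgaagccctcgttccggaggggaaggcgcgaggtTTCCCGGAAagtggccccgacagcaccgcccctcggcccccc
The NF-kB core letters occur in 15.7% and the STAT letters in 7.02% of the 32851 windows. Among the 5 of 8 genes with an entry, Icam1 was the gene with an NF-kB core or STAT match. The C/EBP letters of Lcn2 also occurred in 1 window each of Spp1 (-156 to -149) and Havcr1 (-46 to -39), neither of which was called. TATAAA (12.4% of windows) was found in Krt20 at -29 to -24 and in Spp1 at -211 to -206.

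Sox9, which drives a repair programme in surviving tubule cells, was lower with Prune2 siRNA. Its level was 72.3, 68.9 and 70.5 CPM with Prune2 siRNA, against 81.8, 74.9 and 79.7 CPM with control siRNA. The groups did not overlap, with the closest pair 2.6 CPM apart. The log2 fold change of Sox9 was -0.16 (95% interval -0.25 to -0.06, edgeR adjusted p = 0.0243), a fall of 10.5%. The call was lost without Prune2 siRNA replicate 2 (adjusted p = 0.0882) or 3 (0.0763), or without control replicate 1 (0.124) or 3 (0.0718). It was also lost in DESeq2 (0.0605) and in limma on log2(FPKM + 1) (0.166).

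Krt20, a keratin that marks severely injured proximal tubule, was at 42.8, 38.0 and 37.0 CPM with Prune2 siRNA, against 41.7, 43.5 and 42.8 CPM with control siRNA. Prune2 siRNA replicate 1 lay among the control values, so the groups overlapped. The log2 fold change of Krt20 was -0.12 (95% interval -0.24 to 0.00, edgeR adjusted p = 0.255).

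Havcr1, Spp1 and Clu gave no call, and the 95% intervals of their folds lay between 0.947 and 1.12. Havcr1 was at 145, 168 and 141 CPM with Prune2 siRNA, against 135, 150 and 150 CPM with control siRNA, and its high value came from Prune2 siRNA replicate 2. The fold of Havcr1 was 1.04 (95% interval 0.967 to 1.12, edgeR adjusted p = 0.6). Spp1 was at 4479, 4614 and 4798 CPM with Prune2 siRNA, against 4216, 4531 and 4988 CPM with control siRNA, which holds both the lowest and the highest library. The fold of Spp1 was 1.01 (95% interval 0.947 to 1.08, edgeR adjusted p = 0.901). Clu was at 10917, 10656 and 10711 CPM with Prune2 siRNA, against 10213, 10132 and 10476 CPM with control siRNA, without overlap. The fold of Clu was 1.05 (95% interval 0.995 to 1.1, edgeR adjusted p = 0.314). All of these intervals ended below that of Lcn2.

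**Figure D3:**
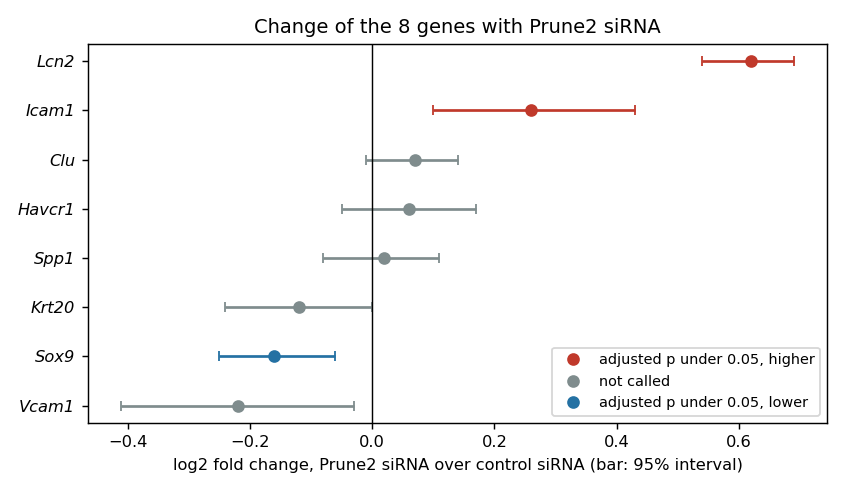
Log2 fold change of the 8 genes, Prune2 siRNA over control siRNA, as points with 95% intervals from the edgeR fit, coloured by call. Lcn2 stands at 0.62, Icam1 at 0.26 and Sox9 at -0.16, and the interval of Lcn2 (0.54 to 0.69) overlaps none of the other 7.

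Exact two-sided permutation tests of the 6 CPM values, which cannot go below p = 0.1 with 3 libraries against 3, gave 0.1 for Lcn2, Icam1, Sox9, Clu and Vcam1, 0.3 for Krt20, 0.6 for Havcr1 and 0.9 for Spp1. As a description, the log2 ratio of Lcn2 to each of the other genes was taken within a library. Lcn2 had the largest change of the 8 in these same values, so the ratios restate it and are no separate test. The Lcn2 to Havcr1 log2 ratio was 2.37, 2.15 and 2.41 with Prune2 siRNA, against 1.91, 1.65 and 1.69 with control siRNA. The difference in the mean log2 ratio was 0.56 to Havcr1, 0.60 to Spp1, 0.55 to Clu, 0.84 to Vcam1, 0.35 to Icam1, 0.74 to Krt20 and 0.78 to Sox9. For none of these 7 ratios did the groups overlap, and each exact permutation test gave p = 0.1, also adjusted over 8 ratios.

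Receptors, ligands and processing enzymes of these proteins changed in both directions. Of 25 such genes 23 were tested, 4 rose, 9 fell and 10 were not called, with a median log2 fold change of -0.08. Over all tested genes 4.46% rose and 5.83% fell. The partner genes that fell include the leukocyte integrin chains Itgal, Itgam and Itgb2, described below. In limma on log2(FPKM + 1) 1 of the partner genes rose, and without the filter 0 rose and 5 fell. For Lcn2, the receptor Slc22a17 was low, at 2.85 ± 0.362 CPM with Prune2 siRNA and 3.24 ± 0.358 CPM with control siRNA (SD, n = 3 each; edgeR adjusted p = 0.674). The uptake receptor megalin (Lrp2), which also takes up clusterin, stood at 32.5, 35.6 and 35.3 CPM with Prune2 siRNA, against 41.4, 42.7 and 39.6 CPM with control siRNA, and fell by 0.26 on the log2 scale (edgeR adjusted p = 0.00347). Mmp9, a gelatinase that forms a complex with lipocalin-2 in humans, stood at 130.5, 140.2 and 111.4 CPM with Prune2 siRNA, against 194.1, 204.2 and 195.5 CPM with control siRNA, and fell by 0.64 (edgeR adjusted p = 3.57e-09). The clusterin and reelin receptors Lrp8 and Vldlr rose 1.18-fold each (edgeR adjusted p = 0.00824 and 0.00371). Without control replicate 3 the adjusted p of Lrp8 was 0.0973, and limma on log2(FPKM + 1) gave 0.26 for Lrp2, 0.236 for Vldlr and 0.0523 for Lrp8.

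Among osteopontin receptors, Cd44 rose and the β3 integrin chain fell. Cd44 stood at 731.4, 822.4 and 694.2 CPM with Prune2 siRNA, against 662.7, 651.5 and 651.4 CPM with control siRNA (1.14-fold, edgeR adjusted p = 0.00395, and 0.0946 in DESeq2 and 0.0625 in limma on log2(FPKM + 1)). Itgb3 stood at 158, 157 and 151 CPM with Prune2 siRNA, against 224, 231 and 240 CPM with control siRNA, a fall of 0.58 on the log2 scale (SE 0.04, edgeR adjusted p = 3.59e-11). The partner chain Itgav averaged 790 ± 49.1 CPM with Prune2 siRNA and 796 ± 20.8 CPM with control siRNA (SD, n = 3 each; edgeR adjusted p = 0.922). Itgb5 rose 1.12-fold (edgeR adjusted p = 0.00519) and Itgb1 fell by 0.17 (edgeR adjusted p = 0.00195), with 0.0645 and 0.102 in limma on log2(FPKM + 1) without the filter. Itga9 fell by 0.64 (edgeR adjusted p = 0.0056), with an adjusted p of 0.059 without control replicate 2 and 0.435 in limma on log2(FPKM + 1). Itga4, the α chain of the Vcam1 receptor, was low, with counts of 11, 25 and 28 with Prune2 siRNA against 50, 46 and 38 with control siRNA. It fell by 1.16 (edgeR adjusted p = 0.00965), with 0.0662 without Prune2 siRNA replicate 1, 0.0611 without control replicate 1 and 0.0989 in limma on log2(FPKM + 1) without the filter.

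The integrin chains that bind Icam1 had the most negative fold changes of the 23 genes. Itgal stood at 0.849, 1.31 and 1.32 CPM with Prune2 siRNA, against 11.2, 13.2 and 8.43 CPM with control siRNA (log2 fold change -3.21, SE 0.20, edgeR adjusted p = 9.64e-12). Itgam and the shared chain Itgb2 fell by 2.61 and 1.28. These integrins are made by leukocytes. Of 20 leukocyte markers (Itgam and Itgb2 among them) 19 fell and 0 rose, where 5.83% of all tested genes fell. Among these markers Cd74 and Laptm5 had the smallest adjusted p. The summed leukocyte markers stood at 60.2, 59.9 and 63.2 CPM with Prune2 siRNA and at 267.4, 283.7 and 227.5 CPM with control siRNA. The sheddases Adam10 and Adam17, the osteopontin kinase Fam20c, the membrane linkers Ezr, Rdx and Msn, and the Sox9 partners Sox5 and Sox6 were not called.

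**Figure D4:**
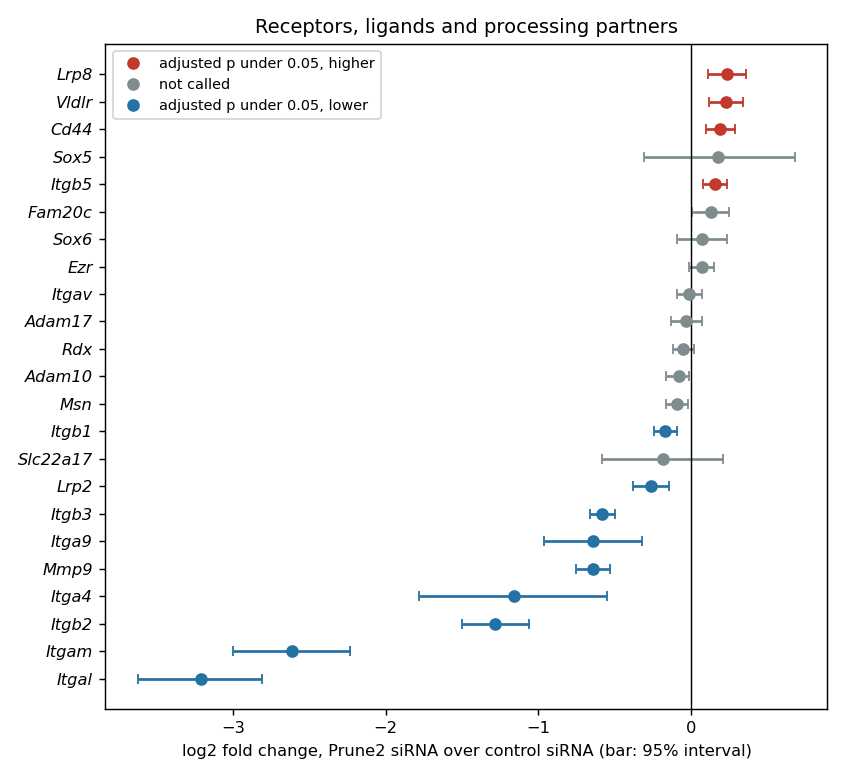
Log2 fold change of the 23 tested receptors, ligands and processing partners, Prune2 siRNA over control siRNA, with 95% intervals and colours by call. Itgal, Itgam and Itgb2 lie at -3.21, -2.61 and -1.28, and the 4 genes that rose lie between 0.16 and 0.24.

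Most of a broader list of genes known from injured or repairing tubule were not called. Of 47 listed 43 were tested, 11 rose, 2 fell and 30 were not called, with a median log2 fold change of 0.07 beside 0.00 over all genes, of which 4.46% rose and 5.83% fell. The summed level of the list was 12830, 12031 and 12537 CPM with Prune2 siRNA and 12456, 12440 and 12228 CPM with control siRNA, so the groups overlapped (exact two-sided permutation test p = 0.8). Abundant genes weigh most in this sum, with Krt8 alone at a mean of 2207 CPM with Prune2 siRNA and 2419 CPM with control siRNA. The sum therefore cannot show whether less abundant genes of the list moved. In limma on log2(FPKM + 1) without the filter 4 rose and 1 fell. Complement C3, made by injured tubules, stood at 51.66, 60.97 and 55.8 CPM with Prune2 siRNA, against 21.97, 22.74 and 28.75 CPM with control siRNA, a 2.285-fold rise (edgeR adjusted p = 3.5e-11). Cp (ceruloplasmin, a copper ferroxidase) stood at 87.3, 97.3 and 94.8 CPM with Prune2 siRNA, against 52.3, 57.4 and 59.9 CPM with control siRNA, a 1.65-fold rise (edgeR adjusted p = 2.63e-10). The genes that fell were Cdh6, a cadherin of the developing and repairing proximal tubule, by 0.31 (edgeR adjusted p = 7.6e-06), and Krt8, by 0.13 (edgeR adjusted p = 0.0328). Krt8 lost its call without Prune2 siRNA replicate 2 (adjusted p = 0.204) or 3 (0.0777), or without control replicate 1 (0.0898) or 2 (0.152), and had 0.203 in limma on log2(FPKM + 1).

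NF-kB and C/EBP inducible genes, the class to which Lcn2 belongs, were partly higher. Of 29 listed 21 were tested, 6 rose, 0 fell and 15 were not called, with a median log2 fold change of 0.11, beside the 4.46% of all genes that rose. The summed level was 1061, 1083 and 1077 CPM with Prune2 siRNA and 990.9, 959.3 and 979 CPM with control siRNA. In limma on FPKM the count that rose was 2 with either pseudocount and 1 without the filter, and leaving out each library gave 4 to 5. Besides C3, which is also in the injury list, Cebpd, a C/EBP factor of the acute phase, stood at 9.62, 10.4 and 7.81 CPM with Prune2 siRNA, against 5.96, 6.25 and 4.56 CPM with control siRNA (1.665-fold, edgeR adjusted p = 0.000454, and 0.0688 in limma on log2(FPKM + 1) without the filter). Nfkbiz, which encodes a coactivator of NF-kB, was singled out after its values were seen. It stood at 82.8, 96.1 and 103 CPM with Prune2 siRNA, against 77.0, 75.0 and 79.9 CPM with control siRNA (1.215-fold, edgeR adjusted p = 0.00108, and 0.0592 in limma on log2(FPKM + 1)). The factor genes Cebpb, Nfkb1, Nfkb2, Rela and Relb of the list, also named afterwards, were not called. Their edgeR adjusted p were 0.248, 0.113, 0.363, 0.816 and 0.722. The feedback inhibitors Tnfaip3 and Nfkbia were at 143 and 24.9 CPM with Prune2 siRNA and 143 and 24.7 CPM with control siRNA, and were also singled out afterwards. The acute-phase genes Saa1 and Saa2 had 0 counts in all libraries.

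Markers of other cell types moved beside these results, and their part in the changes was not tested. For comparison with the counts that follow, 4.46% of all tested genes rose and 5.83% fell. Interferon response genes rose in 13 of 15 cases and fell in 0, with summed levels of 364.6, 300.2 and 280.8 CPM with Prune2 siRNA and 155.4, 189.4 and 149.5 CPM with control siRNA, Ifit3 and Bst2 having the smallest adjusted p (5.58e-11 and 1.21e-08). Endothelial markers fell for 7 of 16 tested and rose for 0, with sums of 116.9 to 123.3 CPM with Prune2 siRNA and 156.3 to 171.5 CPM with control siRNA, Cdh5 and Emcn having the smallest adjusted p. Epithelial markers summed to 8683 to 9357 CPM with Prune2 siRNA and 9185 to 9357 CPM with control siRNA, so the groups overlapped, while 4 of 17 rose (Cdh16 and Cldn7 with the smallest adjusted p) and Krt8 fell. Distal nephron markers rose for 6 of 8 tested, with sums of 213 to 219 CPM with Prune2 siRNA and 161 to 171 CPM with control siRNA, and Scnn1a, a subunit of the epithelial sodium channel, rose 1.56-fold. Proximal tubule markers fell for 3 of 6 tested, with sums of 57.9 to 64.2 CPM with Prune2 siRNA and 75.8 to 84.2 CPM with control siRNA, and Gatm, an enzyme of creatine synthesis, fell by 1.29 on the log2 scale. Fibroblast markers fell for 3 of 8 tested, Vim and Col1a1 with the smallest adjusted p, with sums of 693.5 to 737.2 CPM with Prune2 siRNA and 915.1 to 954.2 CPM with control siRNA.

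The tested genes whose centred log2 CPM over the 6 libraries lay closest to Lcn2 were Dhrs3, Abca1 and Pmp22. Their root mean square differences from Lcn2 were 0.028, 0.065 and 0.068 on the log2 scale, among 9062 genes with at least 10 CPM on average. Dhrs3, a retinaldehyde reductase, averaged 57.4 CPM with Prune2 siRNA and 38.0 CPM with control siRNA, and Abca1, a cholesterol exporter, 40.65 and 24.53 CPM. Closest to Icam1 were Tmem171, Lrp8 and Fras1 (0.030, 0.036 and 0.042), and closest to Sox9 were Plekhh2, Prag1 and Cplx2 (0.017, 0.023 and 0.024).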

How the data were processed

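RNA-seq was measured in 3 Prune2 siRNA and 3 control siRNA libraries, grouped by sample title. Per the file headers, the authors deposited 1 table with a read count and an FPKM per gene and library, plus group means of FPKM, a log2 fold change and a p-value with its FDR. The submitters' processing notes name GRCm38 and mm10. Which aligner, counter, strand setting and test the authors chose is not given in the sources used here. FPKM can move with the length used, so counts carry the tests.

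Counts were fitted with edgeR 4.0.16 in R 4.3.3 (TMM, filterByExpr, glmQLFit, glmQLFTest, no block) and adjusted by Benjamini-Hochberg over 13248 genes. SE is the log2 fold change over the square root of F. The procedure was also run on counts simulated from the edgeR fit to these libraries, which checks it under its own model only. Symbols and positions are from GENCODE M21 (22219 of 22274 identifiers), and promoters from RefSeq GRCm38.p6. The alternatives were RLE and upper-quartile scaling, no low-count filter, DESeq2 1.42.0, limma 3.58.1 (voom on counts, and log2 FPKM with pseudocounts of 1 and 0.1), a replicate block, and leaving out each library. Permutation tests used scipy 1.17.1. Replicate pairs differed by 2.57 to 3.92 chi-square per degree of freedom over genes with at least 10 counts, so no library was counted as a copy.

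Named genes are the 8 injury genes, Prune2, partners of their proteins, up to 2 called genes per direction in each other list, markers at 0, and the 3 genes most like a named gene (root mean square difference of centred log2 CPM). Genes marked in the text as singled out or named afterwards are exceptions. The genes and the lists were chosen with earlier results of these data known, so no count over them is independent support. Lists share some members (Lrp2, C3, Cxcl1, Cxcl10, keratins, Pax2, Pax8, Itgam and Itgb2). A listed epithelial marker is not reported here and was left out of its list's counts and sums.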

Additional observations from a re-analysis of the deposited data

How the results depend on the processing

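Over 15 alternatives Lcn2 kept its call, with log2 fold changes of 0.59 to 0.64 and adjusted p no higher than 0.000591, and Clu, Vcam1 and Krt20 kept their direction and stayed uncalled. Icam1 and Sox9 lost their calls in DESeq2 (0.26 and -0.16), limma on log2(FPKM + 1) with the filter (0.24 and -0.14) or without it (0.24 and -0.14), and limma on log2(FPKM + 0.1) (0.27 and -0.15), and each kept it in 7 of 15. In those 4 settings 1 of the 8 genes was called. The count over all genes was 641, 635 and 593 in the limma fits on FPKM with pseudocounts of 1 and 0.1 and without the filter, against 1364, and the cause was not tested. Leaving out each library gave 997 to 1249 genes and 1 to 3 of the 8. The log2 fold changes then ranged from 0.18 to 0.32 for Icam1, -0.20 to -0.14 for Sox9, -0.27 to -0.12 for Vcam1, -0.02 to 0.11 for Havcr1 and -0.04 to 0.08 for Spp1. The last 2 changed sign, Havcr1 (-0.02) without Prune2 siRNA replicate 2, and Spp1 without Prune2 siRNA replicate 3 (-0.01) or control replicate 1 (-0.04). Of 330 recomputed list counts, 301 stayed within 1.5 times. Counts of 0 in both the main fit and the alternative were scored as unchanged, so this share overstates the stability. Among them are the neutrophil counts, from a list with 0 genes tested in the main fit. In limma on log2(FPKM + 1) the falls were 4 for endothelial and 1 for proximal tubule markers, and without the filter 3 distal nephron markers rose and 1 fibroblast marker fell. The 3 limma fits on FPKM also ended the calls of Lrp2, Vldlr, Lrp8, Cd44, Itga9, Krt8 and Nfkbiz. Same-numbered libraries did not deviate together (correlations 0.07, -0.01 and 0.05). This gives no sign of pairing but cannot show how the samples were made, and the labels do not say that the numbers pair them. A replicate block called 1490 genes and the same count of 3 among the 8, with Icam1 at 0.27 and Sox9 at -0.16. Depth limits Vcam1 and Icam1 most, whose counting error alone was 4.64 to 5.97% a library.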
